A study of Homo sapiens with 2 samples.

Results

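The genes described here encode the protein subunits of the mitochondrial ribosome and of the translocases that carry proteins into mitochondria. A gene was included when its symbol in the platform annotation, or its current name, starts with MRPL or MRPS, or with TIMM or TOMM followed by a digit. The rule reads names and no measured value, but the genes were chosen with earlier results of these data known. It gave 89 genes of the 12445 named on the array, measured by 95 probes. They comprised 45 genes of the large and 24 of the small ribosomal subunit, 12 TIMM genes and 7 TOMM genes. The remaining one, annotated as MRPS36, is now called KGD4 and assigned to the oxoglutarate dehydrogenase complex.

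Cells of KYSE-170, a human line of oesophageal squamous carcinoma, were transfected with an oligoribonucleotide for miR-210 and compared with cells that received an oligoribonucleotide called ncRNA. All cells came from the same line and all received an oligoribonucleotide, and there was no untransfected group. The sources used here do not give the ncRNA sequence, the dose or the time after transfection. Each transfection had 1 array, so every value is a single measurement and no p-value can be given.

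Mitochondria keep a small genome that encodes core proteins of the respiratory chain, and a ribosome of bacterial descent translates them. All protein subunits of this ribosome are made in the cytosol and imported. Most precursors cross the outer membrane through the TOM complex. They are then passed to the TIM23 complex (matrix proteins with a presequence) or, with the help of small TIM chaperones, to the TIM22 complex (carrier proteins of the inner membrane). The microRNA miR-210 is induced by hypoxia through HIF1A and is known for repressing genes of mitochondrial metabolism, among them ISCU and COX10.

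The mature sequences that the MIR210 hairpin yields are shown because the transfected oligoribonucleotide is named for them. They come from RefSeq (GRCh38.p14, minus strand) and have bases 2 to 8, the seed, in capitals. The 3p arm lies at chr11:568112-568133 and the 5p arm at chr11:568150-568171. The labels name only miR-210 and no arm.
hsa-miR-210-3p: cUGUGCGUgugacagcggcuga
hsa-miR-210-5p: aGCCCCUGcccaccgcacacug

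Each log2 ratio below is the miR-210 value minus the ncRNA value, both as log2 intensities that were quantile normalized, and folds come from it. Intensities are as deposited. The deposited median over all probes was 36 on the miR-210 array and 39 on the ncRNA array, so a fold differs slightly from the quotient of the 2 deposited values. Probes were kept whose mean level was at or above the median level, which corresponds to an intensity of 37.5. The only error available is the spread between probes of the same gene. Over 251 genes with 2 or more kept probes, a single probe's log2 ratio had a SD of 0.44 around its gene. That value covers neither separate cultures nor separate arrays. The epithelial genes SFN (7094 and 12693), EPCAM (6165 and 4502) and KRT17 (2736 and 1541) were bright on the miR-210 and ncRNA arrays. Of 12 squamous epithelial markers with a probe, 11 passed the level filter, and the transcription factor TP63 (22 and 57) did not. SFN, EPCAM and KRT17 were the brightest of these markers. KRT5 (496 and 290), KRT14 (404 and 376) and KRT13 (186 and 295) were lower. DSG3 (76 and 72), CDH1 (69 and 64), DSC3 (52 and 40), PKP1 (49 and 30) and SOX2 (43 and 90) were dim. The defining genes COL1A1, PECAM1 and PTPRC of fibroblasts, endothelium and leukocytes read at most 21. Other markers of these cells passed the level filter: DCN (181 and 183) and PDGFRB (78 and 87) of 7 fibroblast markers, VWF (103 and 126) and KDR (36 and 66) of 4 endothelial markers, and CD79A (126 and 133) of 4 leukocyte markers. Their part in the results was not tested. Summed over each list, the fibroblast markers gave 326 and 344, the endothelial markers 174 and 223, and the leukocyte markers 176 and 174 on the miR-210 and ncRNA arrays.

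The genes of the mitochondrial ribosome and import machinery had, as a group, a median log2 ratio close to that of all genes on the array. Of the 89 genes, 87 passed the level filter, or 97.8%, against 53.4% of the named genes outside the group. MRPL9 (10 and 11 on the miR-210 and ncRNA arrays) and TIMM10B (30 and 36) did not. The lowest levels that passed belonged to MRPS25 (56 and 47), TIMM22 (68 and 59) and TIMM44 (56 and 88). Among the 87, 46 log2 ratios lay above 0 and 41 below it, and their median was 0.00, against a median of 0.01 over all 6684 genes kept.

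At least 1.5-fold higher with miR-210 were 5 of the 87 genes (5.75%), against 11.9% of all genes kept. At least 1.5-fold lower were 6 (6.9%), against 10.8% of all genes kept. On the deposited scale, with no normalization between arrays, these counts were 2 higher and 12 lower, against 7.94% and 15.5% of all genes kept, and with an offset of 10 before log2 3 were higher. One gene, MRPL19, was at least 2-fold higher, where 3.02% of all genes were. TOMM5, MRPL36 and MRPS27 were at least 2-fold lower, 3.45% of the group against 3.19% of all genes. The group was brighter than the other genes, with median intensities of 538 and 667 on the miR-210 and ncRNA arrays against 161 and 172 for the other genes kept. Raising the filter to the 75th percentile of the level left 77 group genes, of which 4 were higher by 1.5-fold or more and 6 lower, against 10.5% and 9.37% of the 3467 genes left in all. The SD of the log2 ratios was 0.47 in the group and 0.54 over all genes kept, and it was 0.42 in the group without TOMM5. With the filter at the 75th percentile the SDs were closer, 0.49 in the group and 0.51 over all genes left. Within 0.44 of 0, the spread between probes, lay 63 of the 87 genes; beyond it lay 27.6% of the group and 34.8% of all genes kept.

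**Figure D1:**
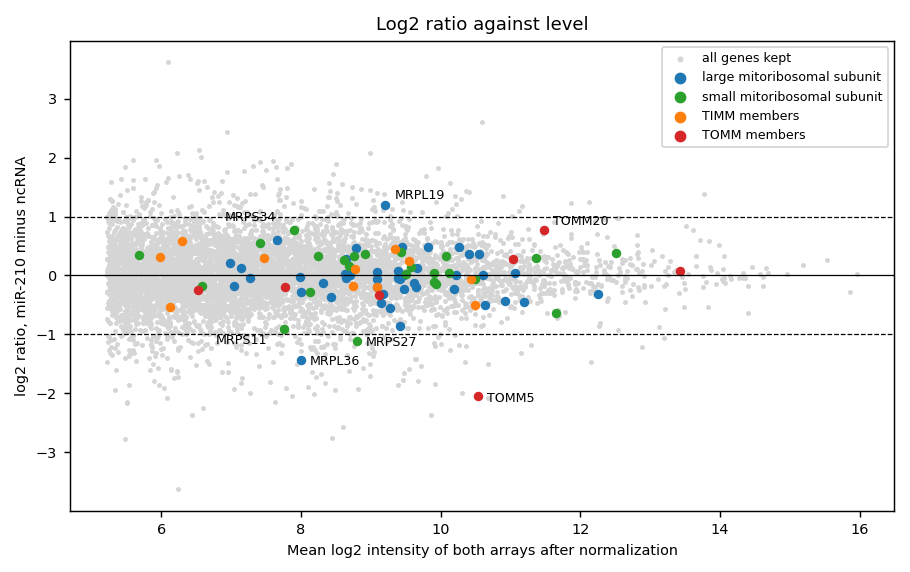
Log2 ratio of miR-210 minus ncRNA (vertical axis) against the mean log2 intensity of both arrays (horizontal axis) for all 6684 genes kept in grey and the ribosomal and import genes in colour, 1 array per group. Dashed lines mark 2-fold. TOMM5, MRPL36 and MRPS27 lie below the lower line and MRPL19 above the upper one.

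The outer membrane translocase held the largest difference of the whole group. TOMM5, a small subunit that associates with the channel protein TOMM40, read 691 on the miR-210 array and 3253 on the ncRNA array. It was 4.16-fold lower with miR-210 (log2 ratio -2.06) and ranked 13 from the lowest of 6684 genes. Both values were well above the array medians, so the ratio does not rest on a value near the bottom of the range. The gene had only 1 probe, annotated under the old name C9orf105, and no second probe checks it.

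The other subunits of the channel had log2 ratios nearer 0. TOMM7, the other small subunit measured and the brightest gene of the group, read 10401 with miR-210 and 11640 with ncRNA, a log2 ratio of 0.08. TOMM40, the beta-barrel that forms the channel, read 82 and 105, a log2 ratio of -0.25. Apart from TOMM5, the channel and small subunits therefore differed by less than the spread between probes.

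The receptors of the TOM complex went in both directions. TOMM20, which recognises presequences, read 3469 on the miR-210 array and 2322 on the ncRNA array and was 1.70-fold higher. TOMM22, the central receptor, read 2175 and 2024, a log2 ratio of 0.29. TOMM70, the receptor for carrier precursors and a docking site for cytosolic chaperones, read 475 and 647, a log2 ratio of -0.34. Of these receptors only TOMM20 differed from 0 by more than the spread between probes. TOMM34, a cytosolic co-chaperone that binds HSP70 and HSP90, read 196 and 242, a log2 ratio of -0.20. Over the 7 TOMM genes the median was -0.20, with 3 above 0 and 4 below.

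In the TIM23 presequence translocase the channel paralogues TIMM17A and TIMM17B were both higher with miR-210. TIMM17A read 93 and 67 on the miR-210 and ncRNA arrays, a log2 ratio of 0.59, and TIMM17B read 721 and 571, 1.37-fold higher. Their partner in the channel, TIMM23, read 492 and 603, a log2 ratio of -0.19. TIMM44, which tethers the HSP70 import motor to the channel, read 56 and 88 and was 1.46-fold lower. TIMM50, the receptor that takes over precursors from TOM, read 387 and 477, a log2 ratio of -0.18. TIMM21, which links TIM23 to TOM, read 436 and 440, a log2 ratio of 0.12. TIMM17A, TIMM17B and TIMM44 exceeded the spread between probes, and TIMM17A and TIMM44 did so at low levels.

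TIMM22, the channel for carrier proteins, read 68 on the miR-210 array and 59 on the ncRNA array, a log2 ratio of 0.31. The small TIM chaperones work in the intermembrane space as hexamers of paired subunits. TIMM8B read 1132 with miR-210 and 1820 with ncRNA and was 1.42-fold lower. Its paralogue TIMM8A, the gene of deafness-dystonia syndrome, read 188 and 166, a log2 ratio of 0.30. TIMM13, the partner of TIMM8A, read 1279 and 1508, a log2 ratio of -0.07. TIMM9, which pairs with TIMM10, read 781 and 718, a log2 ratio of 0.25. Only TIMM8B among the small TIM genes exceeded the spread between probes. Over the 11 TIMM genes kept the median was 0.12, with 6 above 0 and 5 below.

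**Figure D2:**
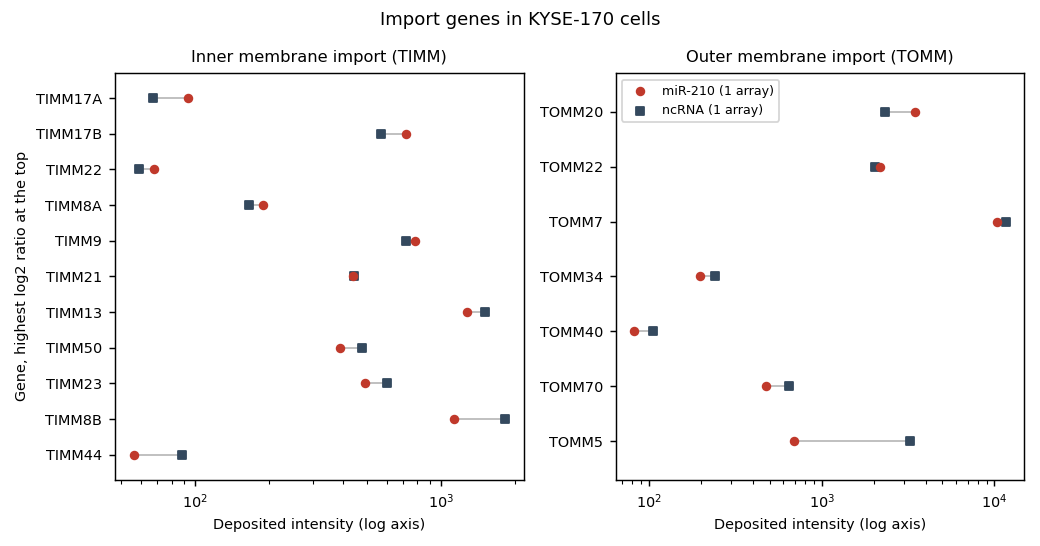
Deposited intensity (log axis) of each TIMM gene (left panel) and TOMM gene (right panel) that passed the level filter, with a circle for the miR-210 array and a square for the ncRNA array, ordered by log2 ratio. TOMM5 is the widest gap, at 691 with miR-210 and 3253 with ncRNA.

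In the large ribosomal subunit the extremes were both proteins with a bacterial counterpart. MRPL19, counterpart of bacterial L19, read 856 on the miR-210 array and 407 on the ncRNA array, 2.30-fold higher and the highest of the group at rank 113 from the top of all genes. MRPL36, counterpart of the small zinc-binding protein L36, read 150 and 440 and was 2.69-fold lower. MRPL17, counterpart of bacterial L17, read 487 and 969 and was 1.82-fold lower. MRPL12, which forms the stalk that recruits translation factors, read 241 and 171 and was 1.52-fold higher. These 4 genes were the only ones of 44 kept in the large subunit that differed by 1.5-fold or more. They were 2 higher and 2 lower, where 11.9% and 10.8% of all genes kept were.

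The remaining large subunit genes lay closer to 0. Their lowest log2 ratio was that of MRPL43 at -0.55 (492 and 787 with miR-210 and ncRNA), a subunit particular to mitochondria. MRPL11, a protein of the stalk base, read 1254 and 2022, a log2 ratio of -0.51. At the other end MRPL50 (787 and 610) and MRPL42 (1382 and 1101), both particular to mitochondria, stood at 0.49 and 0.48. MRPS30, a protein of the large subunit despite its symbol, stood at 0.48 (1008 and 805), and MRPS18A, also in the large subunit, at -0.29 (224 and 297). The brightest gene of this subunit, MRPL3, read 4075 and 5885, a log2 ratio of -0.32. MRPL58, a peptidyl-tRNA hydrolase built into the ribosome, stood at -0.23 (635 and 813). The median of the 44 genes was -0.04, with 20 above 0 and 24 below.

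In the large subunit the proteins with a bacterial counterpart spread more widely than those particular to mitochondria. The 25 genes of the first kind ran from -1.43 to 1.20 with a SD of 0.51, and the 19 of the second kind ran from -0.55 to 0.49 with a SD of 0.29. Their medians were -0.02 and -0.06. In the first kind 2 genes were higher by 1.5-fold or more and 2 lower, and in the second none was. Over all genes kept, 11.9% were that much higher and 10.8% that much lower. The small subunit had the opposite order of SDs. It was 0.41 for the 14 genes with a bacterial counterpart and 0.50 for the 10 particular to mitochondria. These differences in spread were not tested.

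In the small ribosomal subunit 16 of 24 genes lay above 0 and the median was 0.15. Of the 24 genes, 3 were lower by 1.5-fold or more and 1 was higher, where 10.8% and 11.9% of all genes kept were. MRPS27, a pentatricopeptide repeat protein, read 292 on the miR-210 array and 683 on the ncRNA array and was 2.15-fold lower. MRPS11, counterpart of bacterial S11, read 152 and 311 and was 1.88-fold lower. MRPS24, counterpart of bacterial S3, read 2435 and 4277 and was 1.55-fold lower.

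MRPS34, a subunit particular to mitochondria, was the highest of the small subunit at 1.72-fold (299 and 189 with miR-210 and ncRNA). MRPS28, counterpart of bacterial S1, read 200 and 147 and was 1.47-fold higher. MRPS12, at the decoding centre, read 761 and 624, a log2 ratio of 0.41. MRPS15, the brightest of the small subunit, read 6159 and 5448, a log2 ratio of 0.39, and MRPS21 read 2721 and 2536, a log2 ratio of 0.29. Apart from MRPS34, MRPS28, MRPS27, MRPS11 and MRPS24, every small subunit gene lay within 0.44 of 0. Of the 10 small subunit genes particular to mitochondria 8 lay above 0, with a median of 0.33. MRPS22, MRPS33, MRPS31, MRPS25 and MRPS23 lay between 0.33 and 0.36. Of the 14 with a bacterial counterpart 8 lay above 0, with a median of 0.09. KGD4 read 1660 and 1503, a log2 ratio of 0.32.

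The placing of these medians above or below 0 depends on how the arrays are scaled. On the deposited scale the median of all genes was -0.12 and all log2 ratios shift down with it. The small subunit median then stood at 0.02, the large subunit median at -0.17 and the TIMM median at -0.01, while the TOMM median stayed below 0. With no test possible, the difference between the subunits is a description of these arrays. The log2 ratios of TIMM21 (-0.01), TOMM7 (-0.16) and MRPL23 (-0.03) also changed sign on that scale, and TOMM7 did with median scaling too (-0.04). Those of the other 30 genes named by rule kept their sign under each of the 7 alternatives that measured them. A changed level filter cannot alter a gene's ratio, and the probe rule alters only genes with several kept probes.

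**Figure D3:**
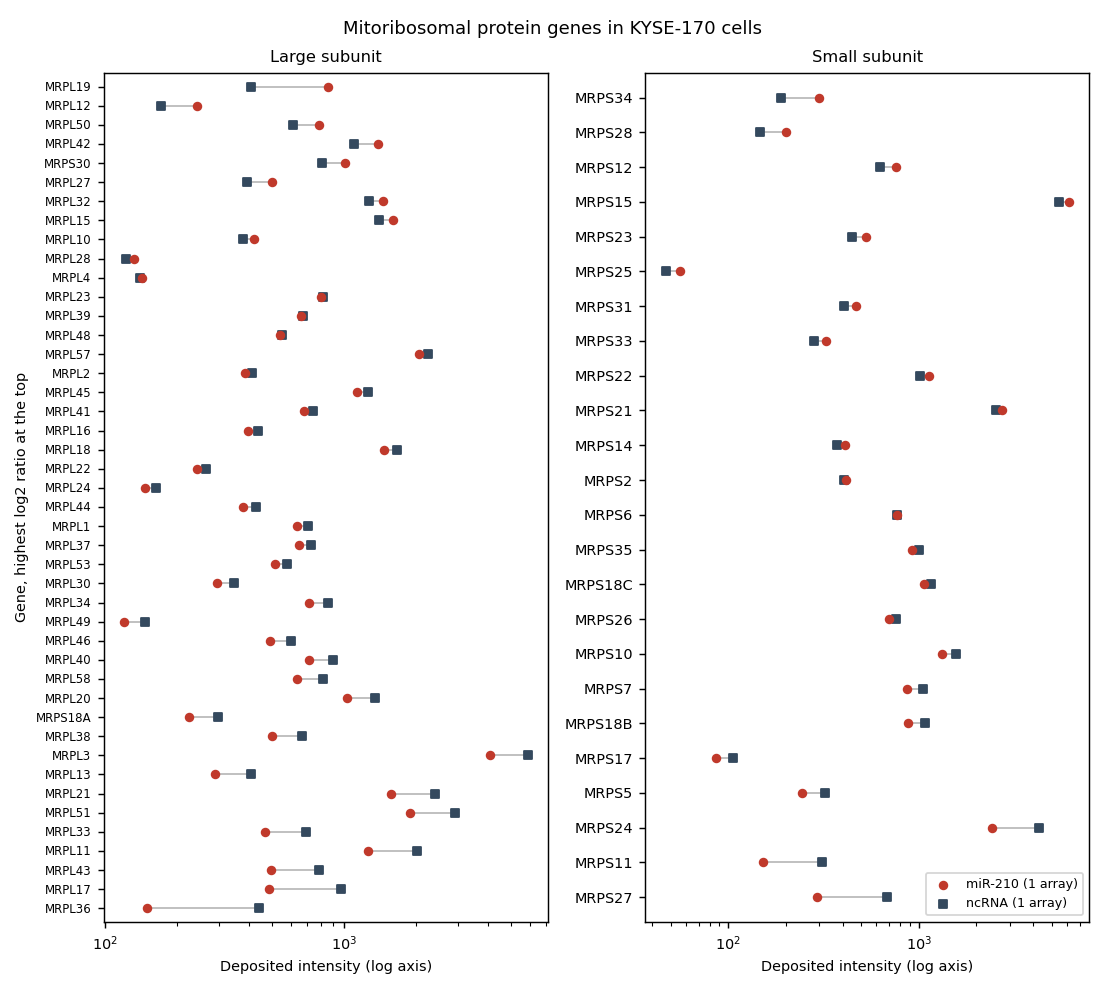
Deposited intensity (log axis) of the 44 large subunit genes (left panel) and 24 small subunit genes (right panel) that passed the level filter, with a circle for the miR-210 array and a square for the ncRNA array, ordered by log2 ratio. Most pairs of symbols lie close together. MRPL36, MRPL17, MRPS27 and MRPS11 have wide gaps with the miR-210 value lower, and MRPL19 has one with the miR-210 value higher.

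A second probe was available for few of these genes. The kept probes of MRPL38 had log2 ratios of -0.31 (499 and 667 with miR-210 and ncRNA) and -0.20 (40 and 49), and its other probe, below the filter, stood at -0.39. The kept probes of MRPL43 stood at -0.55 and -0.24, and its dim other probe (30 and 15) at 1.05. The probes of MRPL23 stood at 0.12 (800 and 815) and -0.11 (67 and 78), and those of MRPL53 at -0.07 (515 and 578) and 0.18 (36 and 34). The bright and dim probes of 1 gene thus differed in sign for MRPL43, MRPL23 and MRPL53. None of the genes that were 1.5-fold or more apart had a second probe.

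Genes that work with the mitochondrial ribosome and the translocases were taken from fixed lists. Of 7 kept mitochondrial translation factors, 1 was at least 1.5-fold higher and none lower: GFM1, elongation factor G1, read 207 and 130 with miR-210 and ncRNA and was 1.70-fold higher. Among 8 kept mitochondrial aminoacyl-tRNA synthetases none was at least 1.5-fold higher and 1 lower, AARS2, the alanine enzyme, which read 113 and 336 and was 2.76-fold lower. These lists had medians of 0.00 and 0.08.

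The list of ribosome assembly factors and further subunits had 17 kept genes and a median of 0.00. TFB1M, which methylates the small subunit's rRNA, read 381 with miR-210 and 190 with ncRNA and was 2.17-fold higher. MRM2, which methylates the large subunit's rRNA, read 169 and 331 and was 1.80-fold lower. The other 15 genes of the list lay within 1.5-fold. The list of other import and folding factors had 17 kept genes and a median of 0.04, and only IMMP2L, an inner membrane peptidase, was past 1.5-fold (70 and 48, 1.57-fold higher). Of 14 kept genes of mitochondrial DNA expression, with a median of -0.06, LRPPRC, which stabilises mitochondrial mRNAs, was 1.89-fold higher (4061 and 2444). PRORP, the nuclease of mitochondrial RNase P, was 1.58-fold higher (136 and 94). The counts past 1.5-fold in these lists stand beside 11.9% higher and 10.8% lower over all genes kept.

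Related gene families also had medians close to 0. The 73 kept respiratory chain and ATP synthase genes, chosen by symbol, had a median of -0.09, with 3 higher by 1.5-fold or more and 4 lower, where 11.9% and 10.8% of all genes kept were. For the 30 kept genes of cytosolic ribosomal proteins the median was -0.04, with 2 higher by 1.5-fold or more and 3 lower. Those 3 were also lower by 2-fold or more, where 3.19% of all genes kept were. The cytosolic set was bright, with median intensities of 14238.5 and 16360.5 on the miR-210 and ncRNA arrays. Its highest readings were 63370 and 65492, where the highest deposited value of all was 65496. Whether saturation narrowed its ratios was not tested. No test sets these families apart from the mitochondrial ribosome.

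**Figure D4:**
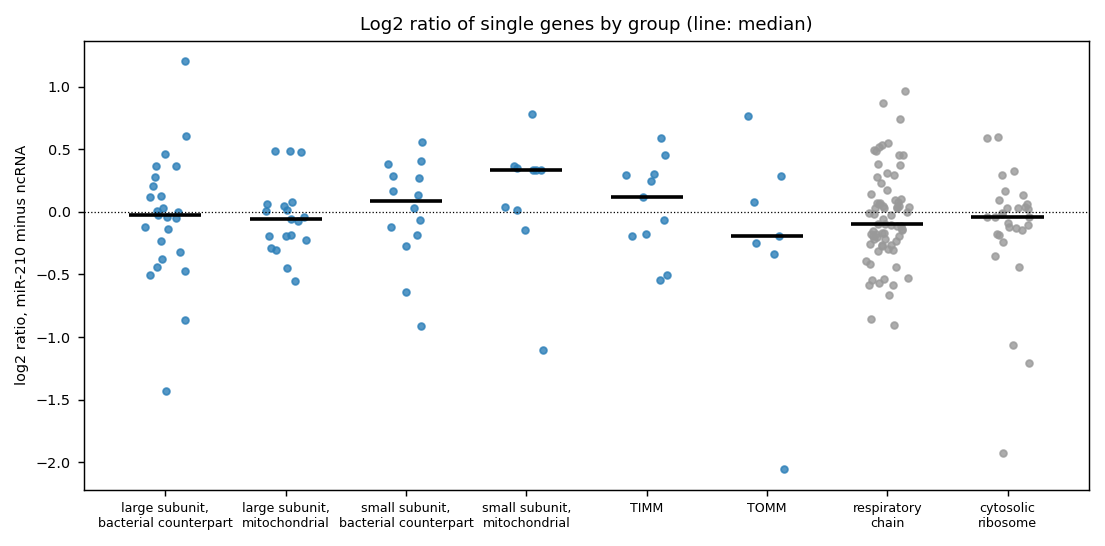
Log2 ratio of miR-210 minus ncRNA (vertical axis) of single genes by group, 1 array per transfection, with a line at each median and blue for the ribosomal and import genes. The small subunit genes particular to mitochondria have the highest median, 0.33, and the TOMM genes the lowest, -0.20.

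The promoters of these genes were searched for sequence motifs, which the choice by name did not use. RefSeq (GRCh38.p14) promoters of 300 bases, 250 before and 50 after the start, matched 80 of the 89 genes. Motifs of 3 factors tied to nuclear genes for mitochondrial proteins were searched on both strands as fixed letters. The motif CCGGAAG of ETS factors, the family of GABPA, was in 40.0% of the group's promoters, against 18.6% for the 5439 other kept genes and 10.7% for all 27305 promoters. The YY1 motif, AANATGGCG, was in 22.5%, against 7.35% and 3.37%. The core of the NRF1 motif, GCGCANGCG, was in 21.3%, against 14.7% and 8.05%. At least 1 of the motifs was found in 54 of the 80 promoters (67.5%), against 34.7% for the other kept genes and 19.2% for all promoters. No motif contains another. These shares were not tested.

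Median log2 ratios with and without each motif were close to each other. The 31 kept genes with the ETS motif had a median of -0.07 and the 47 without it 0.01. The 17 with the YY1 motif had a median of -0.07 and the 61 without it 0.03. The 17 with the NRF1 motif had a median of -0.04 and the 61 without it 0.02. The matches are letters in a window and do not show that a factor binds.

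The upstream 250 bases are printed for the lowest and the highest gene of the group with a promoter in the table, MRPL36 (minus strand, chr5:1799838-1800087) and MRPL19 (plus strand, chr2:75646533-75646782), and for TOMM20 (minus strand, chr1:235128838-235129087), the highest import gene. Capitals mark the searched motifs. MRPL36 holds an NRF1 and a YY1 motif, TOMM20 an NRF1 and an ETS motif, and MRPL19 none. The genes were picked by their log2 ratios, and a link between motif and ratio was not tested.
MRPL36: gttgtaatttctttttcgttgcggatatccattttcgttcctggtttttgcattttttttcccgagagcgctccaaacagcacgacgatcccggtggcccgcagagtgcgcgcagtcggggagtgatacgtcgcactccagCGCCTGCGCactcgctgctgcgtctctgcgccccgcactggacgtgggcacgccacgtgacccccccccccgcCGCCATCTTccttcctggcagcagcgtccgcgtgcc
MRPL19: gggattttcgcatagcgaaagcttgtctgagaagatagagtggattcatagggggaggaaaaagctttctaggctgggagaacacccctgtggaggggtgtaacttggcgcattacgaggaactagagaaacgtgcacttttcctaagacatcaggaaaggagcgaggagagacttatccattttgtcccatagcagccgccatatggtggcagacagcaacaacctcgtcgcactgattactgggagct
TOMM20: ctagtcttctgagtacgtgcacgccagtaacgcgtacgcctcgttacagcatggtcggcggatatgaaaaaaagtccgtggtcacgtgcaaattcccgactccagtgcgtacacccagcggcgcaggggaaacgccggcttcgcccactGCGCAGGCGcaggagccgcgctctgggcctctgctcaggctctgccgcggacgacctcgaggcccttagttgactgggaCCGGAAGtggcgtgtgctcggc

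Many of these genes start back to back with another gene. A start on the opposite strand within 1000 bases upstream was found for 27 of 80 genes, or 33.8%, against 23.1% of the other kept genes. MRPS11 and MRPL46 start 320 bases apart and are both ribosomal genes: MRPS11 was 1.88-fold lower, and MRPL46 (488 and 598 with miR-210 and ncRNA) stood at -0.19. PTCD2, which starts 133 bases from MRPS27, read 85 and 80, a log2 ratio of 0.20, beside the 2.15-fold lower MRPS27. SARS2, the mitochondrial seryl-tRNA synthetase, starts 181 bases from MRPS12 and read 211 and 202, a log2 ratio of 0.17 beside 0.41 for MRPS12. EME1, a DNA repair endonuclease subunit 45 bases from MRPL27, stood at 0.58 (76 and 55), beside 0.46 for MRPL27 (500 and 394). ZNF189, 233 bases from MRPL50, stood at -0.73 (100 and 179), against 0.49 for MRPL50. These partners were picked after their values were seen. Of all 13 group genes that passed the level filter together with such a partner, 9 lay on the same side of 0 as the partner, with MRPS11 and MRPL46 each counted. The Spearman correlation between gene and partner over these 13 was only 0.07, and agreement between partners was not tested.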

How the data were processed

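Total RNA (500 ng) of KYSE-170 cells was turned into aminoallyl-cRNA, labelled with Cy5 and put on an oligonucleotide array read in 1 colour, per the labels' protocols. The deposited values are intensities on a linear scale, whole numbers from -8 to 65496. Neither the scanner nor the background correction or normalization is given in the sources used here; because some values lie under 0, a background must have been subtracted. Groups come from the sample titles.

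For the 24177 of 24267 probes above 0 on both arrays, log2 intensities were quantile normalized (numpy 2.4.6, pandas 2.3.3). A gene took its brightest kept probe. Of the probes, 13395 had 1 symbol, and the other 10872, with no symbol or several, were left unnamed. Symbols were updated through unambiguous synonyms in RefSeq (GRCh38.p14), 7 of them among the probes described. On simulated data, probes changed by -1 and 1 came back at -0.95 and 0.98. Named were all kept TIMM and TOMM genes, ribosomal genes at 1.5-fold or among the 5 most distant of a subunit, the 5 brightest and those with several probes; further genes quoted were picked after their values were seen. The genes and lists were chosen with earlier results of these data known. Precision is limited by the number of arrays. The alternatives tried changed the scaling, the level filter, an offset and the probe rule.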

Additional observations from a re-analysis of the deposited data

How the results depend on the processing

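A total of 7 alternatives were run, and the 33 named genes kept their log2 ratio within 0.44, the spread between probes, in all 227 values. Many of these values could not move. A changed level filter returns the same ratio for a gene that passes it. The changed probe rule does so for a gene with a single kept probe. Only the scaling and the offset could move every gene. TOMM5 ranged from -2.24 to -2.04, MRPL36 from -1.55 to -1.37, MRPS27 from -1.23 to -1.08 and MRPL19 from 1.07 to 1.20. The median of the whole group turned to -0.13 on the deposited scale, -0.0064 with median scaling and -0.0165 with loess on level; the first moves with the median of all genes, at -0.12. On the deposited scale the large subunit median was -0.17, the small subunit median 0.0174 and the TIMM median -0.0132, and 2 group genes were higher by 1.5-fold or more and 12 lower, against 7.94% and 15.5% of all genes kept. With an offset of 10, 3 were at least 1.5-fold higher, against 9.90% of all genes kept. Counts at 2-fold stayed within 1.5 times under every alternative. With 1 array per group no replicate could be left out. No paired analysis was possible because each group has 1 sample.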
